A study of Linum usitatissimum with 8 samples.

Results

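Seeds of the flax (Linum usitatissimum) cultivar named Heiya No.14 were compared between the stages labelled DAP10 and DAP30. It rests on 4 of the 8 RNA sequencing libraries, replicates 1 and 2 of each stage. The labels call the tissue seed, name no treatment or genotype beyond the cultivar, which all groups share, and do not spell out DAP. The 2 DAP20 libraries served to ask how much of each change was present at that stage, and the 2 DAP5 libraries entered the same model and were compared with DAP20. Of 40518 genes in the table, 28749 had enough reads to be tested.

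A flax seed holds the embryo, the endosperm and the seed coat. Early seed development is known for cell division, tissue patterning and growth of the seed coat, and later development for the filling of the embryo with storage protein and with oil rich in alpha-linolenic acid, followed by drying. RNA of a whole seed mixes these tissues, so that fewer cells of a type and less RNA per cell cannot be told apart. The deposited table does not pair gene IDs with names, so genes are given by ID, no role is assigned to any of them, and the tissue label was not checked against marker genes.

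Library totals ran from 12951493 to 27691831 counts, with the lowest 2 at DAP10. The replicates of each stage differed by far more than counting noise, and the labels do not say that they came from separate plants, so a p-value reflects only how these libraries vary, and that variation could be technical. The replicates were closest at DAP10 (median absolute log2 difference per gene 0.19) and furthest apart at DAP20 (0.38). The DAP20 replicates also differed in a direction that bears on timing. Among genes that changed by more than 2-fold from DAP10 to DAP30 (a test described next), DAP20 replicate 2 lay nearer the DAP30 end than replicate 1 for 63.1% of 7480 falling genes and 60.5% of 4569 rising genes. Results on timing are therefore also given without each DAP20 library.

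From DAP10 to DAP30 most tested genes changed, and falls were larger and more frequent than rises. A gene was called where edgeR's quasi-likelihood test gave a false discovery rate (FDR, Benjamini-Hochberg adjusted p over all genes tested) below 0.05. In all, 18955 genes (65.9%) were called, of which 8411 (29.3%) were higher and 10544 (36.7%) were lower at DAP30. Both libraries of 1 stage lay above both of the other for every called gene, which follows largely from calling genes on these libraries. The median log2 fold change was 1.57 among the genes that rose, with quartiles of 1.01 and 2.41, and -2.89 among those that fell, with quartiles of -5.20 and -1.56. With the 1443 falling and 78 rising genes that had no count at the lower stage set at the bound that 3 counts over both libraries allow, the medians were -2.70 and 1.57, and the lower quartile of the falls was -4.25. Against a 2-fold threshold the test called 12049 genes (41.9%), of which 4569 rose and 7480 fell.

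This balance moved with the scaling. Counts were scaled by TMM, a method built on the assumption that most genes keep their level, and over all genes the median change was then -0.21 on the log2 scale. With library totals in place of TMM it was -0.70, and 30.3% of the called genes rose in place of 44.4%. Of the 16300 genes called under both scalings, 0 changed direction. A shift shared by all genes leaves little room for such a change. Every change below is given under TMM and should be read against the shift of the median.

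**Figure D1:**
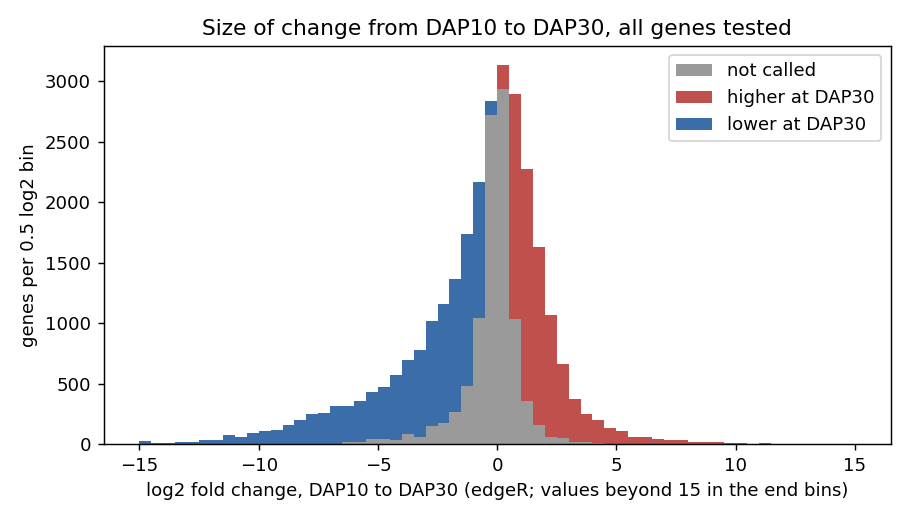
Genes tested, by log2 fold change from DAP10 to DAP30 (x axis, bins of 0.5) and number of genes per bin (y axis), stacked by call. The falling genes extend further from 0 than the rising genes, with medians of -2.89 and 1.57.

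The sizes of rise and fall differed most at the extremes. Among genes with reads at the lower stage, 611 rose 16-fold to 256-fold and 65 rose more than 256-fold, whereas 2091 and 228 genes fell by these sizes. Falls outnumbered rises among weakly expressed genes, and rises outnumbered falls among highly expressed ones. Of 10368 genes with a mean of 1 to 10 CPM (counts divided by the TMM-scaled library size, averaged over all 8 libraries), 46.1% were lower and 18.1% higher at DAP30. Under 1 CPM, 34.9% of 3515 genes were lower and 7.99% higher. Of 13217 genes at 10 to 100 CPM the order was the opposite, with 40.8% higher and 31.4% lower. Of 1649 genes at 100 CPM or more, 52.3% were higher and 23.3% lower. The median level was 22.9 CPM for rising genes, 7.80 CPM for falling genes and 6.58 CPM for genes not called.

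As a set, the genes that rose were read from longer gene models. The median listed length was 2158 bases for rising genes, 1937 for falling genes and 1967 for genes not called. It was 2349 for rising and 1837 for falling genes whose change was called from DAP10 to DAP20 only. For those called from DAP20 to DAP30 only, the rising genes had the shorter median, 1953 against 2146.5. The labels do not define this length. Of 1295 tested gene models added by the authors, recognised by the word newGene in their IDs, 276 (21.3%) were higher, 228 (17.6%) lower and 791 (61.1%) not called. Over all genes tested 29.3% were higher, 36.7% lower and 34.1% not called.

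The genes that rose came to hold most of the library. Their share of all counts was 25.6% in each DAP10 library, 55.1% and 60.1% in DAP20 replicates 1 and 2, and 73.5% and 74.5% in the DAP30 replicates. Falling genes held 45.8% and 46.2% in the DAP10 replicates, 16.9% and 13.6% in those of DAP20, and 6.58% and 6.28% in those of DAP30. DAP10, DAP20 and DAP30 did not overlap in either share. At DAP5 the shares were near those of DAP10, with means of 27.2% ± 1.55 for the rising and 45.5% ± 0.929 for the falling genes (SD, n = 2). These genes were chosen on the DAP10 and DAP30 libraries, so their shares there are a description, with no test. At DAP30, 286 of the 8411 rising genes held 50% of that set's counts, and the top 10 held 10.5% of the library. With genes called under library totals the rising set held 60.4% of the DAP30 counts in place of 74.0%.

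**Figure D2:**
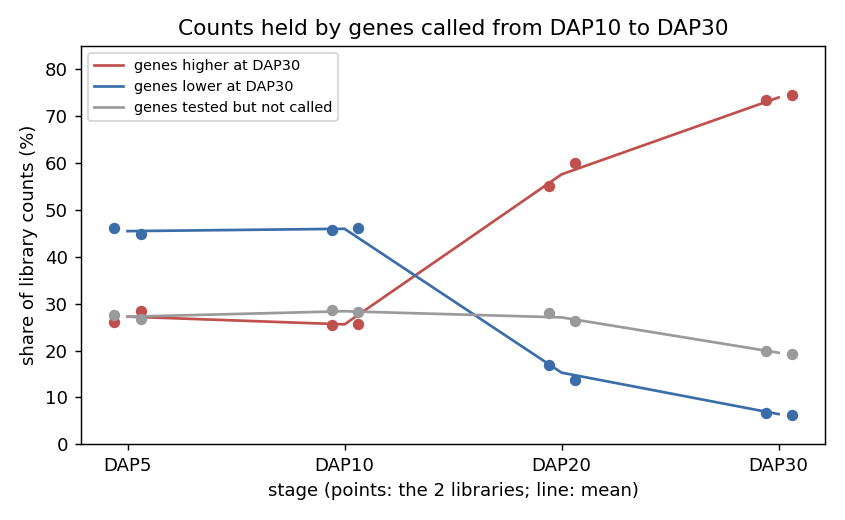
Share of library counts (y axis, percent) held by genes called higher, called lower or not called from DAP10 to DAP30, by stage (x axis), with a point per library and a line through the means. The rising genes go from 25.6% at DAP10 to 74.0% at DAP30 and the falling genes from 46.0% to 6.43%.

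The most abundant genes that changed, ranked by CPM per kilobase of listed length, showed steep rises among the rising genes and mixed patterns among the falling ones. Lus10016273.g.BGIv1.0 stood at 43.6 and 49.4 CPM in DAP10 replicates 1 and 2, at 6900 and 7541 CPM at DAP20 and at 22739 and 27523 CPM at DAP30. The stages did not overlap, and DAP5 was lower still at 4.00 and 10.1 CPM. Its log2 fold change from DAP10 to DAP30 was 9.08 ± 0.63 (SE, edgeR FDR = 2.75e-05), and with 31335 CPM per kilobase at DAP30 it ranked above every other gene that rose. The part of that rise after DAP20, a change of 1.80 ± 0.46 on the log2 scale (SE, edgeR FDR = 0.0219), was not called without DAP20 replicate 1 (FDR = 0.0550), DAP30 replicate 1 (0.0674) or DAP30 replicate 2 (0.0921). Second by this rank was Lus10014280.g.BGIv1.0, with 16955 CPM per kilobase, which is described below.

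Among falling genes Lus10032825.g.BGIv1.0, a short model of 258 bases, had the highest level per length at DAP10, 11129 CPM per kilobase. Its levels were 3029 and 2714 CPM at DAP10, 645 and 418 CPM at DAP20, and 1196 and 1211 CPM at DAP30. It was thus lowest at DAP20, and its log2 fold change over the span was -1.25 ± 0.29 (SE, edgeR FDR = 0.00623). The partial recovery after DAP20 was not called without either DAP30 library (edgeR FDR = 0.0826 without replicate 1 and 0.0825 without replicate 2). Lus10022927.g.BGIv1.0 stood at 11774 and 8884 CPM at DAP10, 6547 and 2436 CPM at DAP20, and 503 and 606 CPM at DAP30, after 1.01 and 26.8 CPM at DAP5. Its fall, a change of -4.22 ± 1.26 on the log2 scale (SE, edgeR FDR = 0.0197), was not called without DAP10 replicate 1 (FDR = 0.0556), DAP30 replicate 1 (0.113) or DAP30 replicate 2 (0.0969). Neither of its steps was called, but the late step was called without DAP5 in the fit (edgeR FDR = 0.00828), by DESeq2 (FDR = 0.0186) and by limma-voom (FDR = 0.0484).

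Among genes with at least 4 counts at DAP10 and 100 CPM at DAP30, the 2 largest rises started from almost nothing. They were nearly complete at DAP20 on the log2 scale. Lus10014280.g.BGIv1.0 began at DAP10 with 17 and 28 counts (1.03 and 1.98 CPM), reached 5607 and 5430 CPM at DAP20 and 12200 and 14827 CPM at DAP30. Its log2 fold change was 13.14 ± 0.57 (SE, edgeR FDR = 8.78e-06), of which 90.2% was present at DAP20. Lus10029516.g.BGIv1.0 had 5 and 4 counts at DAP10 (0.303 and 0.283 CPM), 875 and 1132 CPM at DAP20 and 2098 and 2680 CPM at DAP30, a change of 12.96 ± 0.67 on the log2 scale (SE, edgeR FDR = 1.22e-05). Here 90.3% of the change was present at DAP20. Both genes were also called higher from DAP20 to DAP30, but that late call was lost for Lus10014280.g.BGIv1.0 without DAP30 replicate 1 (FDR = 0.0767) or replicate 2 (0.120). For Lus10029516.g.BGIv1.0 it was lost without either DAP10 or either DAP30 library or without DAP20 replicate 1, with edgeR FDR values of 0.0888 to 0.196. It was also lost with library totals (FDR = 0.0558), with the replicate number as a block (0.0623) and with a minimum mean of 5 CPM (0.0543).

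The 2 largest falls among genes with at least 4 counts at DAP30 and 100 CPM at DAP10 ended at a handful of counts. Their DAP20 replicates were far apart. Lus10041912.g.BGIv1.0 stood at 788 and 770 CPM at DAP10, 80.9 and 4.24 CPM at DAP20, and had 6 and 0 counts at DAP30, a change of -11.88 ± 1.73 on the log2 scale (SE, edgeR FDR = 0.00069). It was -11.09 without DAP30 replicate 2, and without DAP30 replicate 1 no count remained at that stage. Lus10002242.g.BGIv1.0 stood at 1391 and 1454 CPM at DAP10, 36.8 and 0.249 CPM at DAP20, and had 6 and 5 counts at DAP30, a change of -11.87 ± 2.08 on the log2 scale (SE, edgeR FDR = 0.00172). In both genes DAP20 replicate 2 lay far below replicate 1. For Lus10002242.g.BGIv1.0 it was at the level of DAP30, whereas for Lus10041912.g.BGIv1.0, with 68 counts, it lay above both DAP30 libraries. Their DAP5 levels, 863 and 796 CPM and 1369 and 2089 CPM, were high as at DAP10. Whether their main fall came before or after DAP20 depended on the library. By limma-voom the late step was not called in Lus10041912.g.BGIv1.0 (FDR = 0.192) or Lus10002242.g.BGIv1.0 (FDR = 0.439). Without DAP20 replicate 1 the late step of Lus10002242.g.BGIv1.0 turned to 0.58 on the log2 scale, a rise that was not called (edgeR FDR = 0.622), and without DAP20 replicate 2 the DAP20 level of Lus10041912.g.BGIv1.0 lay on the DAP10 side of the midpoint of its change (edgeR FDR = 0.00457).

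Far more genes went off than came on. With at least 10 CPM, on library totals, in DAP10 replicates 1 and 2 and no count at DAP30, 210 genes were lost, and 10 genes were gained by the same rule in reverse. The counts were 203 and 11 with TMM-scaled CPM, 336 lost without DAP30 replicate 1, and 18 and 16 gained without DAP10 replicates 1 and 2. No count over both libraries of a stage allows up to 0.107 CPM at DAP10 and 0.0794 CPM at DAP30 (3 counts of the summed totals, counting error only). If a mean below 0.5 CPM was allowed instead of 0 counts, the numbers were 893 and 78. Of the 893 lost genes, 316 were also below 0.5 CPM at DAP20, 435 lay from 0.5 to 10 CPM, and 142 still had 10 CPM or more. Of the 78 gained genes, 57 had reached 10 CPM by DAP20 and 21 lay from 0.5 to 10 CPM. At DAP5, 725 of the lost genes had 10 CPM or more, and 62 of the gained genes were below 0.5 CPM.

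Of the genes with no count at DAP10, the most abundant at DAP30 was Lus10004895.g.BGIv1.0, at 4794 and 7638 CPM, at least 63515-fold higher (edgeR FDR = 4.32e-05). The bound, set by 3 counts over both DAP10 libraries, was 29332 without DAP10 replicate 1 and 34184 without DAP10 replicate 2. Lus10013336.g.BGIv1.0 went from no count to 209 and 263 CPM at DAP20 and 345 and 331 CPM at DAP30, at least 3454-fold higher (edgeR FDR = 8.64e-06), with bounds of 1595 and 1859 without DAP10 replicates 1 and 2. It had 5 and 7 counts at DAP5.

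The most abundant DAP10 genes without a count at DAP30, Lus10007186.g.BGIv1.0 and Lus10000298.g.BGIv1.0, had unlike DAP10 replicates. Lus10007186.g.BGIv1.0 stood at 488 and 8484 CPM at DAP10 and at 3124 and 9340 CPM at DAP20. Its fall to DAP30 was at least 43948-fold (edgeR FDR = 0.000956), with bounds of 83112 without DAP10 replicate 1, 4784 without DAP10 replicate 2, 18752 without DAP30 replicate 1 and 25196 without DAP30 replicate 2. Lus10000298.g.BGIv1.0 followed the same replicate pattern, with 432 and 6702 CPM at DAP10, 2641 and 7244 CPM at DAP20, and a fall of at least 34948-fold (edgeR FDR = 0.00088). Its bounds were 65661 and 4230 without DAP10 replicates 1 and 2, and 14912 and 20036 without DAP30 replicates 1 and 2. The early step was not called in either gene (edgeR FDR = 0.754 for Lus10007186.g.BGIv1.0 and 0.747 for Lus10000298.g.BGIv1.0), and without DAP10 replicate 2 it was a called rise in both (FDR = 0.0303 and 0.0299). Whether these genes share reads was not tested.

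Whether a change was already made by DAP20 was asked in 3 ways: by the calls of the early step (DAP10 to DAP20) and the late step (DAP20 to DAP30), by a test of DAP20 against the midpoint of DAP10 and DAP30, and by bounds on each step. The steps share DAP10, DAP20 or DAP30 libraries with the span, and with each other. In all genes the early step called 53.3% and the late step 32.5%.

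By calls, the early step alone was the most frequent pattern. Of the 18955 changed genes, 8547 (45.1%) were called in the early step and not in the late step, 3746 (19.8%) in both steps in the direction of the whole change, and 3192 (16.8%) in the late step only. Neither step was called for 2654 genes (14.0%). Falling genes were called in the early step only in 5060 cases (48.0%) and in both steps in 1694 (16.1%), against 3487 (41.5%) and 2052 (24.4%) for rising genes. A late step without a call is not shown to be without change. The number called in both steps was 2147 and 2099 without DAP10 replicates 1 and 2 and 1939 and 2103 without DAP30 replicates 1 and 2. The number called in the late step only was 1611 and 1740 without DAP30 replicates 1 and 2. Without DAP20 replicate 1 or 2, 9193 and 7911 genes were called in the early step only.

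Among genes called from DAP10 to DAP30, those called in both steps in opposite directions were few. A gene whose early and late steps cancel out is not called over that span, so full reversals were not counted here. In 250 rising genes the early rise was followed by a called fall, and in 242 falling genes the early fall was followed by a called rise. The 250 overshooting genes held a mean share (± SD, n = 2) of 0.600% ± 0.0386 at DAP10. This became 8.01% ± 0.312 at DAP20 and 2.0% ± 0.272 at DAP30. Of the DAP20 share, Lus10004895.g.BGIv1.0 alone held 3.74% and 4.58% of the counts in replicates 1 and 2, and the other 249 genes held 3.85% ± 0.285 (SD, n = 2). A further 275 falling genes, with 1.68% of the DAP20 counts, had first risen, and 49 rising genes had first fallen. The 492 genes with a reversed late step numbered 277 and 248 without DAP10 replicates 1 and 2, and 148 and 182 without DAP30 replicates 1 and 2.

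On the log2 scale most of the change lay before DAP20 for the typical gene of either direction. The fitted log2 change present at DAP20 was 63.6% of the whole for the median rising gene, with quartiles of 42.0% and 87.8%. For the median falling gene it was 61.7%, with quartiles of 31.6% and 93.3%. Among genes with counts at all 3 stages, where no fitted change rests on a stage without reads, the medians were 63.5% for 8333 rising and 63.2% for 8969 falling genes. DAP20 lay between the other 2 stages in 76.9% of rising and 68.6% of falling genes. The 2 DAP20 libraries placed this point differently. Among genes changed by more than 2-fold the median was 61.1% by replicate 1 and 66.9% by replicate 2 for rises, and 65.2% and 73.5% for falls. These medians by library were not restricted to genes with counts at all 3 stages.

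**Figure D3:**
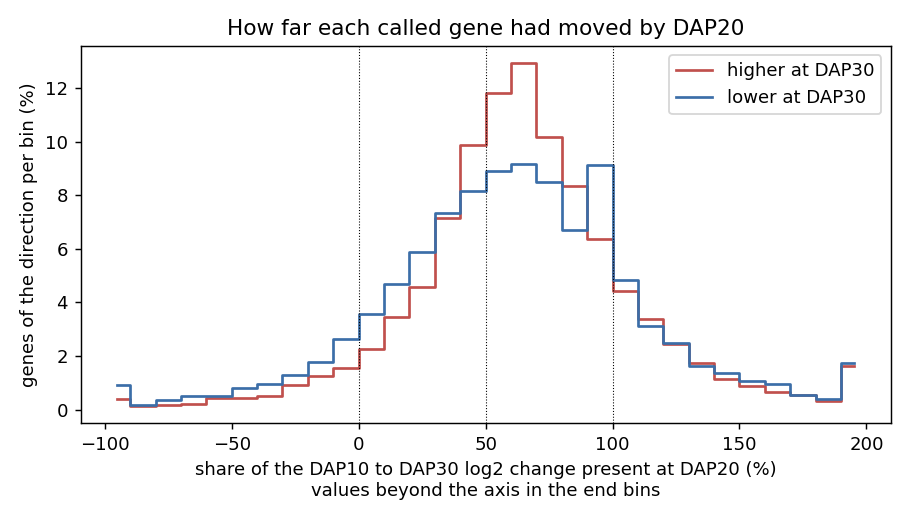
Share of the DAP10 to DAP30 log2 change present at DAP20 (x axis, percent, dotted lines at 0, 50 and 100) and percent of the called genes of each direction per bin of 10 (y axis). Both curves are centred above 50%, with medians of 63.6% and 61.7%, and the falling genes have a second peak just below 100%. A gene with no count at DAP20 and none at DAP30 lies near 100%, and 1443 falling genes had no count at DAP30. Whether such genes make the peak was not tested.

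The midpoint test asked whether more or less than the middle of the log2 change was reached at DAP20. It does not use the difference between DAP30 and DAP10 that chose the genes. For rising genes DAP20 lay on the DAP30 side of the midpoint in 1975 of 8411 (23.5%), where 14.9% of all genes tested lay above it. It lay on the DAP10 side in 403 (4.79%), where 10.8% of all genes tested lay below it. For falling genes the DAP30 side held 2021 of 10544 (19.2%), against that background of 10.8%, and the DAP10 side 1183 (11.2%), against 14.9%. The other 13373 changed genes (70.6%) could not be told apart from the midpoint, and over all genes tested 25.7% were called. The changed genes on the DAP30 side thus numbered 3996 and those on the DAP10 side 1586. With library totals these totals were 4042 and 1567. The rising genes on the DAP30 side then numbered 1171 of 5756 called, and the falling genes 2871 of 13242.

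The counts of the midpoint test depended on single libraries more than their order did. On the DAP30 side there were 2348 and 2183 genes without DAP10 replicates 1 and 2 and 2656 without DAP30 replicate 1. On the DAP10 side there were 754 and 738 without DAP10 replicates 1 and 2 and 982 and 1051 without DAP30 replicates 1 and 2. Without DAP20 replicate 1 the sides held 4316 and 1586 genes, and without DAP20 replicate 2 they held 3125 and 1821. The DAP30 side held more genes in all 6 of these fits, but among falling genes its lead was much narrower without DAP20 replicate 2. Among genes with counts at all 3 stages the sides held 3890 and 1392.

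Large rises and large falls differed in how often DAP20 was placed on the DAP30 side of the midpoint of the log2 change. Of 676 genes with reads at DAP10 that rose at least 16-fold, DAP20 lay on the DAP30 side in 395 (58.4%) and on the DAP10 side in 3 (0.444%). Of 2319 genes with reads at DAP30 that fell at least 16-fold, it lay on the DAP30 side in 538 (23.2%) and on the DAP10 side in 293 (12.6%). With library totals the shares were 59.1% and 0.205% for rises and 25.5% and 11.1% for falls. Without DAP20 replicate 2 they were 48.0% and 0.289% for rises and 19.0% and 17.4% for falls, and 18 large rises lay on the DAP10 side without DAP20 replicate 1. The difference between rises and falls was not tested, since genes are not replicates. The midpoint test placed fewer weakly expressed genes on a side, 9.88% of changed genes under a mean of 1 CPM against 45.4% at 100 CPM or more. Falling genes as a whole had the lower median level. Of falls of 16-fold to 256-fold 64.5% were not told apart, against 45% of rises of that size. How far expression level shaped the difference was not tested. The midpoint lies on the log2 scale, so a rise can pass it at a small part of its final CPM. A fall can likewise lose most of its CPM and still lie on the DAP10 side. In share of counts, all rising genes together held means of 25.6%, 57.6% and 74.0% at DAP10, DAP20 and DAP30. All falling genes together held 46.0%, 15.3% and 6.43%.

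**Figure D4:**
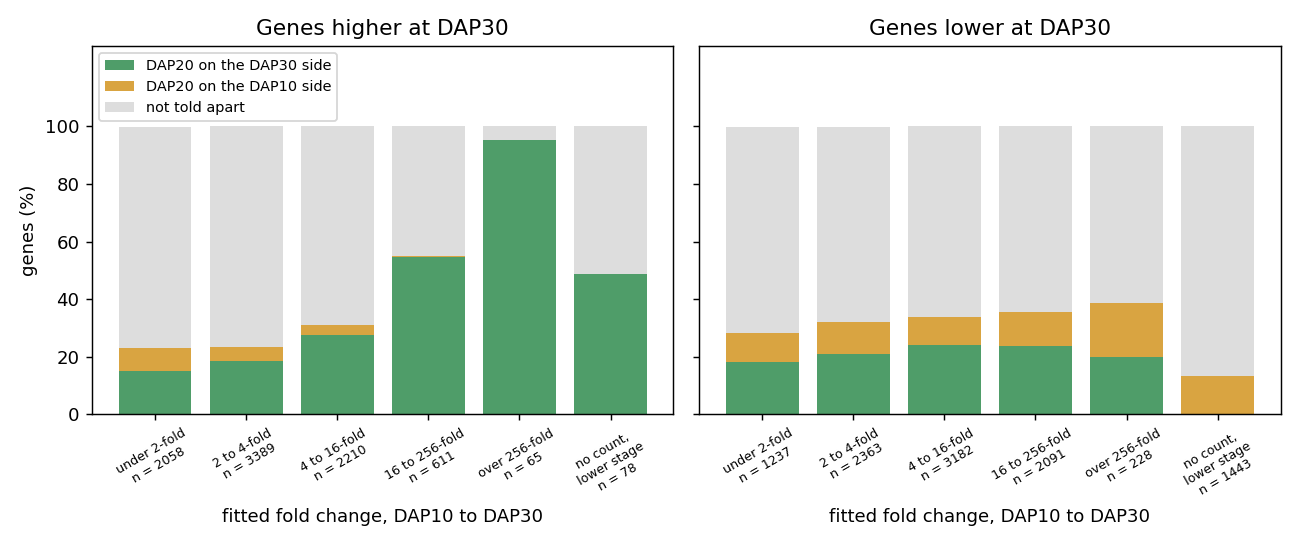
Percent of called genes (y axis) whose DAP20 level lay on the DAP30 side of the midpoint, on the DAP10 side, or could not be told apart from it, by fold change from DAP10 to DAP30 (x axis), for rising genes (left) and falling genes (right). In rises of 16-fold to 256-fold 54.5% lay on the DAP30 side and 0.491% on the DAP10 side, against 23.6% and 12% in falls of that size.

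Bounds on each step gave the genes for which a change of 2-fold before or after DAP20 lay outside the interval. A step was bounded where the 95% interval of its log2 fold change lay wholly within 2-fold in either direction. Among genes with reads at the lower stage, 2058 rising and 1237 falling genes had a fitted change under 2-fold over the whole span. For such genes a bounded step can still hold most of the change. The late step was bounded for 3069 rising genes (36.5%) and 2143 falling genes (20.3%), against 29.8% of all genes tested. The early step was bounded for 1936 rising (23.0%) and 1134 falling genes (10.8%), against 21.5% of all genes tested. Of the 8547 genes called in the early step only, 3923 had a bounded late step, so for the others a change of 2-fold after DAP20 was not outside the interval. Over both directions, 5212 late steps and 3070 early steps were bounded. The late-step count was 3409 and 3267 without DAP10 replicates 1 and 2 and 3077 and 3166 without DAP30 replicates 1 and 2, and the early-step count was 1128 and 1209 without DAP10 replicates 1 and 2.

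Changes made by DAP20 and then held are shown by 4 genes with a bounded late step and DAP20 on the DAP30 side. They had the largest such changes among genes with at least 4 counts at the lower stage and 100 CPM at the higher. Lus10027627.g.BGIv1.0 rose from 0.546 and 0.565 CPM at DAP10 to 197 and 353 CPM at DAP20 and stood at 197 and 359 CPM at DAP30. Its early log2 fold change was 8.94 ± 0.56 (SE, edgeR FDR = 4.26e-05), and its late one was 0.01 with an interval of -0.84 to 0.87. Lus10011941.g.BGIv1.0 rose from 3.39 and 3.81 CPM to 740 and 1017 CPM and stood at 613 and 922 CPM at DAP30, with a late interval of -0.79 to 0.40. In both genes the libraries of DAP20 and DAP30 overlapped and those of DAP10 lay far below.

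Among falls, Lus10041798.g.BGIv1.0 went from 256 and 243 CPM at DAP10 to 3.11 and 1.81 CPM at DAP20 and 2.02 and 2.15 CPM at DAP30. Its early log2 fold change was -6.65 ± 0.30 (SE, edgeR FDR = 2.11e-05), and the late interval ran from -0.92 to 0.42. Lus10020045.g.BGIv1.0 went from 1276 and 1185 CPM to 16.1 and 8.85 CPM and stood at 14.1 and 13.3 CPM at DAP30, with a late interval of -0.62 to 0.89. At DAP5 Lus10041798.g.BGIv1.0 stood at 228 and 182 CPM and Lus10020045.g.BGIv1.0 at 231 and 149 CPM. DAP10 was thus the highest stage in both, by a small margin in the former and a large one in the latter. The timing calls of these 4 genes were the same in every fit tried.

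Changes made after DAP20 are shown first by rises. Lus10007312.g.BGIv1.0 stood at 14.5 and 13.5 CPM at DAP10, 20 and 9.28 CPM at DAP20 and 203 and 161 CPM at DAP30. Its late log2 fold change was 3.64 ± 0.37 (SE, edgeR FDR = 0.000951), and the early interval ran from -0.74 to 0.87. Lus10035476.g.BGIv1.0 stood at 17.5 and 21.7 CPM at DAP10, 24.4 and 27.0 CPM at DAP20 and 122 and 109 CPM at DAP30, a late change of 2.17 ± 0.18 on the log2 scale (SE, edgeR FDR = 0.000543). These were the largest rises with a bounded early step and DAP20 on the DAP10 side of the midpoint. The ranking covered only genes with at least 4 counts at DAP10 and 100 CPM at DAP30.

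Among late falls Lus10024801.g.BGIv1.0 held 114 and 151 CPM at DAP5, 121 and 104 CPM at DAP10 and 157 and 117 CPM at DAP20, and then dropped to 1.01 and 2.23 CPM. The late log2 fold change was -6.44 ± 0.40 (SE, edgeR FDR = 0.000216), with an early interval of -0.40 to 0.98. The change over the span was -6.15, or -5.65 and -6.80 without DAP30 replicates 1 and 2. Lus10035082.g.BGIv1.0 stood at 1254 and 1396 CPM at DAP10, 1595 and 930 CPM at DAP20 and 238 and 170 CPM at DAP30, a late change of -2.63 ± 0.37 on the log2 scale (SE, edgeR FDR = 0.00261). Its DAP20 level was not told apart from the midpoint without DAP10 replicate 1 (edgeR FDR = 0.0605), DAP10 replicate 2 (0.0532), DAP20 replicate 1 (0.0735) or DAP30 replicate 2 (0.0612).

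Some changes went past their DAP30 level at DAP20 and came back. Among genes with at least 100 CPM at DAP30, the return was largest in Lus10004895.g.BGIv1.0, which fell from 44597 and 55659 CPM at DAP20. Its late change was -3.01 ± 0.46 on the log2 scale (SE, edgeR FDR = 0.00746), and it was not called without DAP30 replicate 1. Lus10004471.g.BGIv1.0 rose from 1.21 and 0.424 CPM at DAP10 to 4992 and 3671 CPM at DAP20 and stood at 649 and 1265 CPM at DAP30. Its late log2 fold change was -2.18 ± 0.45 (SE, edgeR FDR = 0.0109) and was not called without DAP30 replicate 1. Over the span the change was 10.15. It was 11.12 and 9.62 without DAP10 replicates 1 and 2, and 10.56 and 9.58 without DAP30 replicates 1 and 2. In both genes every DAP30 library lay below every DAP20 library and far above DAP10.

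The opposite course, a fall past the DAP30 level and a return, was followed by 242 genes. Of those with at least 100 CPM at DAP10, the 2 with the largest return had few counts at DAP20. Lus10005093.g.BGIv1.0 stood at 545 and 572 CPM at DAP10, 4.56 and 0.436 CPM at DAP20 and 28.6 and 12.6 CPM at DAP30, after 4.49 and 9.87 CPM at DAP5. Its change over the span was -4.76 ± 0.86 on the log2 scale (SE, edgeR FDR = 0.00205), or -5.47 and -4.30 without DAP30 replicates 1 and 2. The rise after DAP20, a change of 3.02 ± 0.85 on the log2 scale (SE, edgeR FDR = 0.0317), was not called without any single library of DAP10 or DAP30, with FDR values of 0.0578 to 0.159. The added model Linumusitatissimum_newGene_1480 had 389 and 369 CPM at DAP10, 1 count in each DAP20 library, and 13 and 20 counts at DAP30. Its late rise was lost without any 1 library of the 3 stages. Its log2 fold change over the span was -8.36, or -7.89 and -8.94 without DAP30 replicates 1 and 2.

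**Figure D5:**
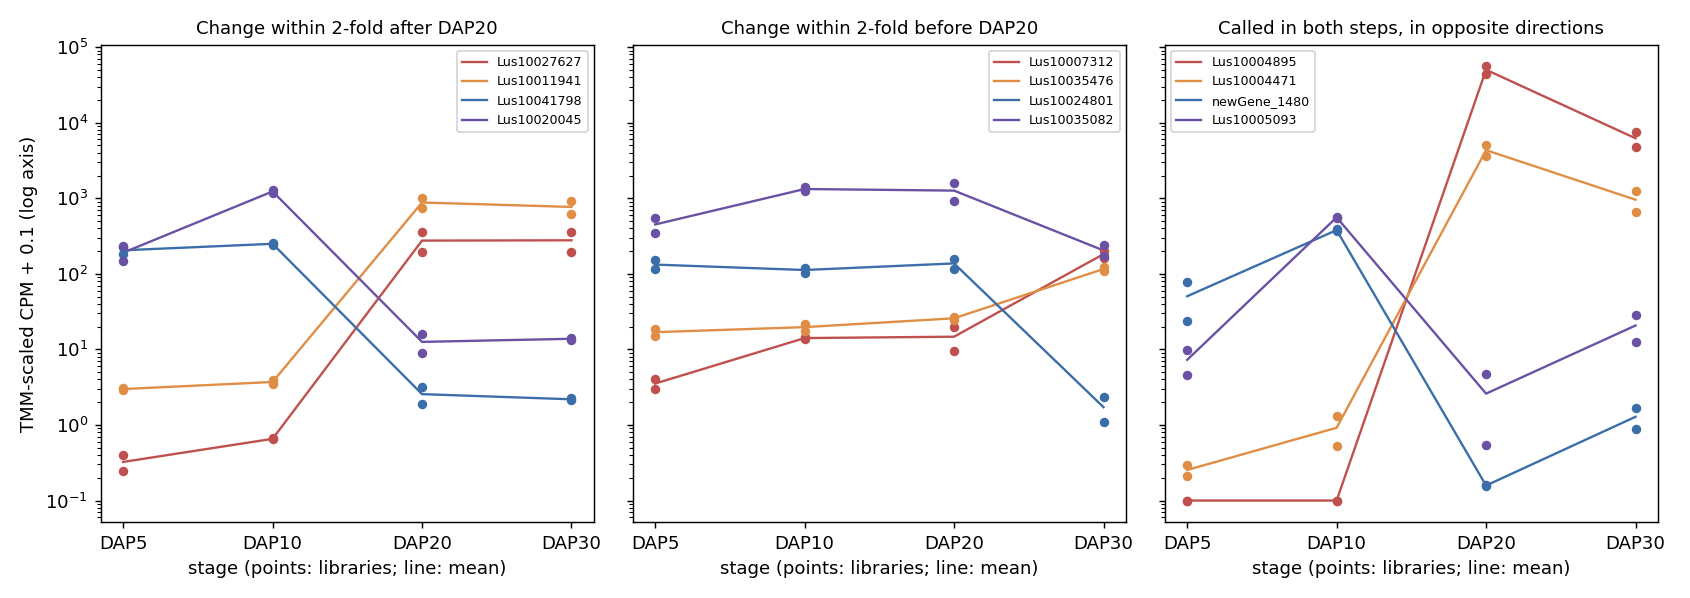
TMM-scaled CPM plus 0.1 (y axis, log scale) by stage (x axis) for genes with a bounded late step (left), with a bounded early step (middle), and called in both steps in opposite directions (right), with a point per library and a line through the means. In the left panel DAP20 and DAP30 lie together, in the middle panel DAP10 and DAP20 do, and in the right panel the DAP20 mean is the highest or the lowest of the 4 stages.

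The same genes were followed from DAP5 to DAP20, a difference that shares no library with the one between DAP10 and DAP30. All 8 libraries shared the filter, the scaling and the estimate of spread, so the calls are not fully separate, and 18082 genes were called from DAP10 to DAP30 without DAP5 in the fit. Of the 8411 genes higher at DAP30 than at DAP10, 5646 (67.1%) were also called higher at DAP20 than at DAP5, against 29% of all genes tested, and 302 (3.59%) were called lower. These 5646 were 67.7% of the 8335 genes that rose from DAP5 to DAP20. Of the 10544 falling genes, 6799 (64.5%) were also lower at DAP20 than at DAP5, against 31.6% of all genes tested, and 662 (6.28%) were higher. These 6799 were 74.8% of the 9095 genes that fell from DAP5 to DAP20. The median log2 fold change from DAP5 to DAP20 was 1.02 for the rising set, -1.59 for the falling set and 0.01 for the genes not called. With library totals 2641 genes were called higher and 10263 lower in both comparisons, so these counts depend on the scaling.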

How the data were processed

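Per the labels' protocols, seed RNA was isolated with TRIzol and sequenced from NEBNext Ultra libraries. A single table deposited by the authors gives raw counts, 1 column a library, and a listed length for each gene. The aligner, the counting tool, strand use and the build were not given in the sources used here, so reads shared by near-identical or overlapping genes could not be recognised. Columns were matched to samples by the library code in each description.

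Counts were analysed in R 4.3.3 with edgeR 4.0.16. Genes passed filterByExpr (minimum count 10, minimum total 15), libraries were scaled by TMM, and stage was the only term of a quasi-likelihood fit over all 8 libraries, which gave the contrasts of DAP10, DAP20 and DAP30, DAP5 to DAP20, and DAP20 minus the mean of DAP10 and DAP30. FDR below 0.05 over all genes tested was a call. Standard errors were derived from each log2 fold change and its F statistic (size over root F), and intervals use the t quantile at the total degrees of freedom. The 2-fold test was glmTreat. Levels of single genes are TMM-scaled CPM. A fitted log2 fold change with no count at a stage depends on the prior count and is given as a bound from 3 counts over both libraries.

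The members, alternatives and gene rule were chosen with earlier results of these data known, and the DAP5 to DAP20 comparison and the values restricted to genes with reads at 3 stages or without the most abundant overshooting gene were added after seeing the data. Named genes were called, had non-overlapping libraries and at least 100 CPM at the higher stage. In each direction they led by log2 fold change (at least 4 counts at the lower stage), by level with no count at the lower stage, by CPM per kilobase, by change with a bounded late or early step, or by a reversed late step, and the first 2 of each are given. Gene lists by function were not used, because the table holds no names. Alternatives included DESeq2 1.42.0 and limma-voom (limma 3.58.1). The tests were tested on simulated data.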

Additional observations from a re-analysis of the deposited data

How the results depend on the processing

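The alternatives other than those named as added were planned. The number of genes changed stayed within 1.5 times that reported in every fit, from 13892 with a mean of at least 5 CPM, where fewer genes were tested, to 20141 without DAP20 replicate 2, and was 18746 by DESeq2 and 18546 by limma-voom. In fits without 1 library of DAP10, DAP20 or DAP30, where the remaining library of that stage was taken to vary as the other stages did, DAP20 lay on the DAP30 side of the midpoint for 2183 to 4316 genes and on the DAP10 side for 738 to 1821. Calls in the late step only ran from 1611 to 3483, in both steps from 1939 to 3604, and with a reversed late step from 148 to 666. Bounded late steps ran from 3077 to 5537 and bounded early steps from 1128 to 3440. Genes on at DAP10 and without counts at DAP30 ran from 218 to 336 and the reverse from 10 to 18. Allowing a mean below 0.5 CPM instead of 0 counts, these were 893 and 78. The cause of these movements was not tested.

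The share of counts depends on which genes are called. With genes called under library totals the rising set held 14.8% at DAP10 and 60.4% at DAP30, and the falling set 56.7% and 12.3%. With genes called against a 2-fold change, fewer by construction, the shares were 9.89% and 52.4%, and 34.2% and 2.41%. Under library totals 2641 genes were called higher and 10263 lower in the DAP5 to DAP20 comparison as well as over the span.

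Nothing in the labels says that replicate numbers pair libraries, and same-numbered libraries of 2 stages deviated together with a correlation of 0.00118 to 0.116 across genes. With the replicate block 18589 genes were called, 3577 on the DAP30 side and 1418 on the DAP10 side. None of the 26 genes that met the naming rule reversed direction, and the call over the span was lost for 2 of them when a DAP10 or DAP30 library was left out, in 3 such fits for Lus10022927.g.BGIv1.0 and in 4 for Lus10033893.g.BGIv1.0. Of genes with a mean under 1 CPM 42.9% were called, against 75.6% at 100 CPM or more. The part of depth in this was not tested.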
